A study of Mus musculus with 12 samples.

Results

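The 10 antioxidant enzymes described here are the superoxide dismutases Sod1 and Sod2, catalase (Cat), the glutathione peroxidases Gpx1 and Gpx4, and the peroxiredoxins Prdx1, Prdx2, Prdx3, Prdx5 and Prdx6. They were taken by gene name from the expression tables of a study of repeated cocaine treatment in mice, and make up 10 of the 39929 gene names listed there. The 12 samples were prefrontal cortex (PFC) of 10-week-old male C57BL/6 mice given saline or cocaine (20 mg/kg per day, intraperitoneally) for 14 days, killed after a withdrawal of 2 h, 24 h or 7 d. Each of the 6 groups, saline or cocaine at each of the 3 time points, had 2 libraries, and each library pooled the excised PFC of 5 mice. The dissected block covered the front of the brain with the prelimbic, orbital and frontal association areas. The files give 1 value per group, pooled by the authors over its libraries, as FPKM, the number of sequenced fragments of a gene corrected for its transcript length and for the mapped fragments of the library. No spread between libraries and no depth can be read from them, so no difference below was tested and none carries a standard error. All 10 genes passed the filter on low values, a mean of at least 1 FPKM over saline and cocaine, at all 3 time points, as did 12843 gene names in all.

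Superoxide, a by-product of respiration and of several oxidases, is turned by the superoxide dismutases into hydrogen peroxide, Sod1 acting mainly in the cytosol and Sod2 in the mitochondrial matrix. Hydrogen peroxide is then removed by catalase in peroxisomes, by glutathione peroxidases with electrons from glutathione, and by peroxiredoxins with electrons mostly from thioredoxin. In brain, neurons consume much oxygen and hold lipids rich in polyunsaturated fatty acids, and Gpx4 reduces lipid hydroperoxides within membranes.

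Of the 10 genes, Prdx1, Gpx4 and Prdx2 were lower in cocaine than in saline by 1.2-fold or more at 7 d, and Prdx6 was higher by 1.2-fold or more at 2 h. The promoters of the 3 genes lower at 7 d are shown because these genes passed the limit in the same direction at that time point. The 250 bases before the annotated start, from RefSeq on GRCm38.p6, plus strand, were as follows, with a match to TGACNNNGC in capitals and all else in lower case. Sod1 is added because it is the only other gene of the set with a match, and Prdx6 had no entry.
Prdx1, chr4:116685349-116685598: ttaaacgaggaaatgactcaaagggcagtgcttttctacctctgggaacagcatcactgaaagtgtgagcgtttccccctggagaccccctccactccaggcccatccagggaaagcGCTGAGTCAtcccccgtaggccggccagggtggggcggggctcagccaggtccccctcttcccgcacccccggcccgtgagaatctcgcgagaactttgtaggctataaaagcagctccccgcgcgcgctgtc
Gpx4, chr10:80046916-80047165: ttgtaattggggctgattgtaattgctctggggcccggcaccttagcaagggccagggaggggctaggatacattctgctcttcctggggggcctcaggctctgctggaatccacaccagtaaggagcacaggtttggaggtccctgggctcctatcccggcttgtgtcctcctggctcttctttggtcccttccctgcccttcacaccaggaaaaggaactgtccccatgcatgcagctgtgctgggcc
Prdx2, chr8:84969372-84969621: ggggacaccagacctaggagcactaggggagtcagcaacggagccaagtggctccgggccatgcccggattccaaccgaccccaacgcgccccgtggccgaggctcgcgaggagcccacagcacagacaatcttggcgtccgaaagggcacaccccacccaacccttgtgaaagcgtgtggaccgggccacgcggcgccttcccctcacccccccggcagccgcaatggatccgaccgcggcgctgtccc
Sod1, chr16:90220512-90220761: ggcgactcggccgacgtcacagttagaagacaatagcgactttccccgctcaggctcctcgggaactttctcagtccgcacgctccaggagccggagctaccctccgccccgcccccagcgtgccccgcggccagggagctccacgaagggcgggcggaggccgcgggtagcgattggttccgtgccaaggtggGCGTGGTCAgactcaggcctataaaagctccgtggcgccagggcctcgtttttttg

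TGACNNNGC is the core of the antioxidant response element, through which the transcription factor NRF2 acts. Searched on both strands of 300-base windows, 250 before to 50 after the start, it was found in 2 of the 12 windows of the 9 genes with an entry, and in 12.4% of all 32851 promoter windows. In Prdx1 the match began 133 bases before the start, at chr4:116685466-116685474. In Sod1 it began 56 bases before the start, at chr16:90220706-90220714. The Prdx1 match overlaps the AP-1 motif TGACTCA, which reads TGAGTCA on the printed strand, and a further copy of that motif lies 237 bases before the start. Prdx1 alone of the set held the AP-1 motif, which was present in 5.20% of all promoter windows. The Gpx4 sequence belongs to the most upstream of its 4 annotated starts and was poor in CpG, with 2 CpG and 58.8% GC, whereas the Prdx2 sequence held 23 CpG and 69.2% GC, against medians of 6 CpG and 52.4% GC over all promoters. The windows of the other Gpx4 starts lie downstream, within chr10:80053315-80054060, and their composition is not given here. The low CpG content thus describes the printed Gpx4 start only.

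The 10 mRNAs spanned a wide range of abundance. FPKM is scaled to transcript length, and levels are set side by side between genes as a description only. Trends with length remained between groups, as given below. The ranges are over the 6 groups, which are not replicates. Gpx4 was the most abundant, with a mean of 369 FPKM over the 6 groups and a range of 336 to 449 FPKM. Sod1 followed at 276 FPKM (266 to 282), then Prdx5 at 168 FPKM (157 to 189). Prdx2 at 134 FPKM (126 to 152) and Prdx1 at 127 FPKM (115 to 153) overlapped in their 6 values and were not separated. Prdx6 averaged 96.3 FPKM (90.7 to 111) and Gpx1 67.5 FPKM (61.3 to 74.0). The mitochondrial enzymes Sod2, at 30.6 FPKM (28.7 to 33.0), and Prdx3, at 30.3 FPKM (29.4 to 32.0), also overlapped. Catalase was the least abundant of the 10, at 18.0 FPKM (17.3 to 18.8). All other neighbours in this order had ranges that did not overlap. Whether fewer cells of a type or less RNA per cell underlies a lower level cannot be told apart in bulk tissue.

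**Figure D1:**
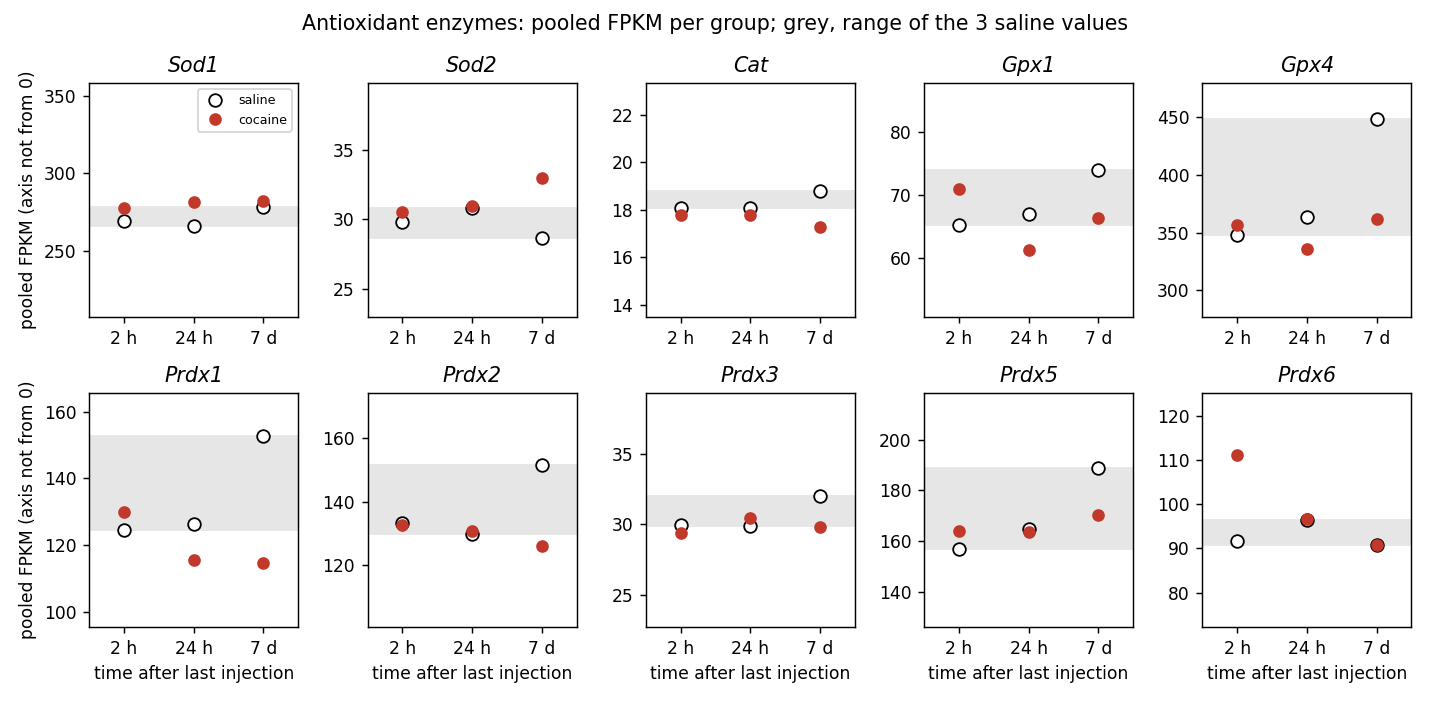
Pooled FPKM of each of the 10 genes (vertical axis, not starting at 0) at 2 h, 24 h and 7 d after the last injection, with saline as open circles and cocaine as red circles. The grey band is the range of the 3 saline values. Prdx6 at 2 h is the cocaine value farthest above its band, and the 7 d saline value sets the top of the band for all genes but Sod2 and Prdx6.

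The tables name the groups in a way that the sample labels alone do not settle. Saline was taken as the first value and cocaine as the second, as the column headings of the study's supplementary tables have it. A change is given as a log2 ratio of cocaine to saline after adding 1 FPKM to each, and a gene is counted as higher or lower when the ratio reaches 1.2-fold, 0.26 on the log2 scale. The tissue held the neuronal markers Snap25 at 1385 to 1581 FPKM and Slc17a7 at 466 to 532 FPKM, whereas the striatal marker Drd2 stayed at 0.146 to 0.234 FPKM. None of the 7 neuronal markers reached 1.2-fold at any time point.

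The superoxide dismutases showed no ratio of 1.2-fold. Sod1 (chr16:90220742-90226322) had 269 FPKM in saline and 278 FPKM in cocaine at 2 h, 266 and 282 FPKM at 24 h, and 278 and 282 FPKM at 7 d. Cocaine was above saline each time, by log2 ratios of 0.04, 0.08 and 0.02, but the 2 h cocaine value lay inside the range of the 3 saline values. Sod2 (chr17:13007773-13024286 at 2 h and 24 h) had 29.8 FPKM in saline and 30.5 FPKM in cocaine at 2 h, 30.8 and 31.0 FPKM at 24 h, and 28.7 and 33.0 FPKM at 7 d. Its log2 ratio at 7 d was 0.20, which 10.0% of all genes exceeded, and its 7 d cocaine value was the highest of its 6 values.

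Catalase (chr2:103453849-103485160), the peroxisomal enzyme that splits hydrogen peroxide without a reductant, differed little in size but held its order. Saline and cocaine were 18.1 and 17.8 FPKM at 2 h, 18.1 and 17.8 FPKM at 24 h, and 18.8 and 17.3 FPKM at 7 d. Its log2 ratios were -0.02, -0.02 and -0.12. It was the only gene of the 10 whose 3 cocaine values all lay below its 3 saline values, which was so for 4.51% of the 12843 genes, and this held after the 6 columns were rescaled to a common median.

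The glutathione peroxidases differed in sign between time points. Gpx1 (chr9:108339080-108340338), the abundant cytosolic and mitochondrial selenoenzyme, had 65.3 FPKM in saline and 70.9 FPKM in cocaine at 2 h, 67.0 and 61.3 FPKM at 24 h, and 74.0 and 66.4 FPKM at 7 d. The log2 ratios were 0.12, -0.13 and -0.15, all under the limit. Gpx4 (chr10:80047166-80056440) had 348 FPKM in saline and 357 FPKM in cocaine at 2 h, 363 and 336 FPKM at 24 h, and 449 and 362 FPKM at 7 d. At 7 d Gpx4 was thus 1.24-fold lower in cocaine, a log2 ratio of -0.31, and 6.21% of genes had a lower ratio. The 7 d saline value stood alone above the other 5 values of Gpx4, and the 7 d cocaine value lay inside the saline range.

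Of the peroxiredoxins, the typical 2-cysteine enzymes Prdx1 and Prdx2, both mainly cytosolic, were lower in cocaine at 7 d. Prdx1 (chr4:116685544-116700822) had 125 FPKM in saline and 130 FPKM in cocaine at 2 h, 126 and 116 FPKM at 24 h, and 153 and 115 FPKM at 7 d. This 1.33-fold lower level at 7 d, a log2 ratio of -0.41, was the largest ratio of the set at any time point, and 3.12% of genes had a lower one. Its 24 h and 7 d cocaine values both lay below the 3 saline values. The locus also spanned a long noncoding RNA gene, AV051173, and the libraries did not keep strand.

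Prdx2 (chr8:84956610-84978757 at 2 h and 24 h, chr8:84956610-84974834 at 7 d) had 133 FPKM in saline and 132 FPKM in cocaine at 2 h, 130 and 131 FPKM at 24 h, and 152 and 126 FPKM at 7 d. The 7 d log2 ratio of -0.26 lay just past the 1.2-fold limit, and 9.00% of genes had a lower ratio. The locus assigned to Prdx2 also spanned Rnaseh2a and, at 2 h and 24 h, the immediate-early gene Junb, which have rows of their own. Junb went from 11.4 FPKM in saline to 61.6 FPKM in cocaine at 2 h, a log2 ratio of 2.34, while the ratio of Prdx2 was -0.01. How reads were divided between these genes was not tested.

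The remaining peroxiredoxins did not reach the limit at 7 d. Prdx3 (chr19:60864051-60874556), the mitochondrial enzyme, had 30.0 FPKM in saline and 29.4 FPKM in cocaine at 2 h, 29.9 and 30.5 FPKM at 24 h, and 32.0 and 29.8 FPKM at 7 d. Its log2 ratios stayed between -0.10 and 0.03. Prdx5 (chr19:6906697-6921813), found in mitochondria, peroxisomes and cytosol, had 157 FPKM in saline and 164 FPKM in cocaine at 2 h, 165 and 163 FPKM at 24 h, and 189 and 170 FPKM at 7 d. Its log2 ratio at 7 d was -0.15. The locus of Prdx5 spanned Trmt112 and Esrra too, each with a row of its own.

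Prdx6 (chr1:161239969-161251219 at 2 h and 24 h), the 1-cysteine enzyme that also has phospholipase activity and in brain is known from astrocytes, was the only gene of the set past the limit at 2 h. It had 91.7 FPKM in saline and 111 FPKM in cocaine at 2 h, 96.5 and 96.6 FPKM at 24 h, and 90.7 and 90.8 FPKM at 7 d. The 2 h cocaine value stood apart above the other 5, which lay between 90.7 and 96.6 FPKM. The 2 h ratio was 1.21-fold, 0.27 on the log2 scale, and 6.84% of genes had a higher one. It was 0.25, under the limit, when each time point was centred on the median of all genes or when the trend over the longest transcript length was taken out, and 0.27, past the limit, with median transcript lengths. Of near copies of the set's genes, Prdx2-rs3, Prdx6-ps2 and Prdx6b were listed, and these 3 reached at most 0.0415 FPKM.

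Counted together, 1 of the 10 genes was higher and 0 were lower at 2 h, where 7.52% of 13359 genes were higher and 4.73% lower. At 24 h 0 were higher and 0 lower, against 4.00% and 3.44% of 13565 genes. At 7 d 0 were higher and 3 lower, against 4.87% and 9.01% of 13429 genes. Among genes with at least 10 FPKM, a range that holds all 10, 10.9% were lower at 7 d. The median log2 ratio of the 10 genes was 0.04 at 2 h, where that of all genes was 0.02, -0.01 at 24 h (all genes 0.01) and -0.13 at 7 d (all genes -0.01). The summed level of the 10 mRNAs was 1267 FPKM in saline and 1320 FPKM in cocaine at 2 h, 1293 and 1264 FPKM at 24 h, and 1464 and 1293 FPKM at 7 d.

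**Figure D2:**
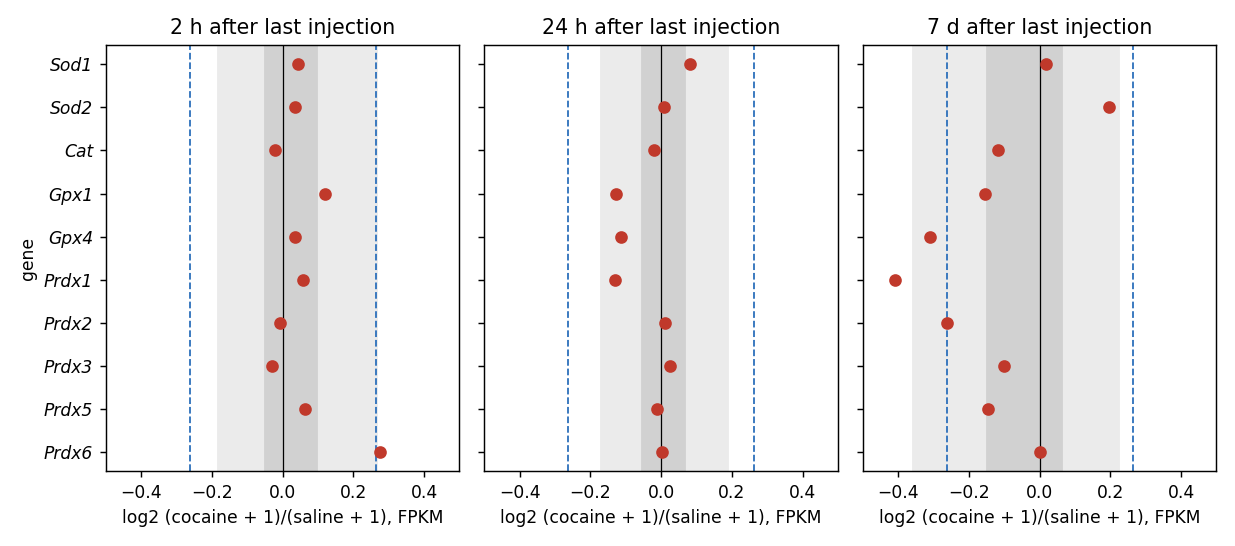
Log2 ratio of cocaine to saline, after adding 1 FPKM to each, for the 10 genes at each time point. Dark and light grey bands hold the middle 50% and 90% of genes with at least 10 FPKM, and dashed lines mark 1.2-fold. Prdx1 at 7 d, at -0.41, and Prdx6 at 2 h, at 0.27, lie outside the light bands.

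For the 3 genes lower at 7 d, Gpx4, Prdx1 and Prdx2, the 7 d saline value was the highest of the 6 values. Each time point was normalized on its own, so these levels are set side by side as a description. Against the mean of saline at 2 h and 24 h, saline at 7 d had log2 ratios of 0.33 for Gpx4, 0.28 for Prdx1, 0.23 for Prdx5 and 0.20 for Prdx2. Of the 10 genes, 2 passed 1.2-fold higher, against 7.44% of 12843 genes, and the median was 0.13 where that of all genes was -0.02. Set against the same earlier saline groups, cocaine at 7 d had log2 ratios of 0.03 for Gpx4, -0.13 for Prdx1, 0.08 for Prdx5 and -0.06 for Prdx2. None of the 10 genes was lower by 1.2-fold in that comparison, against 4.11% of all genes, and their median was -0.000919, or 0.03 after the 6 columns were rescaled.

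Saline at 24 h against saline at 2 h, by contrast, gave log2 ratios from -0.04 to 0.07 for the 10 genes. Time after the last injection and any batch in which the libraries of a time point were prepared cannot be told apart across these groups. At 2 h the cocaine value of Prdx6 lay above all 3 saline values, against 30.5% of all genes, and those of Cat and Prdx3 below them, against 24.9%. At 24 h those of Sod1, Sod2 and Prdx6 lay above, against 29.0%, and those of Cat, Gpx1, Gpx4 and Prdx1 below, against 18.0%. At 7 d those of Sod1 and Sod2 lay above, against 13.5%, and those of Cat, Prdx1, Prdx2 and Prdx3 below, against 25.1%. After rescaling of the 6 columns, 0 lay above and 5 below at 24 h, against 2929 above and 3025 below of 12843 genes.

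The ratio of cocaine to saline was larger than the spread of the gene's own 3 saline values for Prdx6 at 2 h (0.27 against a spread of 0.09 on the log2 scale), for Sod1 at 24 h (0.08 against 0.07), and for 5 genes at 7 d (Sod2, Cat, Prdx1, Prdx2 and Prdx3). The share of all genes for which this holds was not computed. The 7 d saline value was the highest of the 3 for Cat, Prdx1, Prdx2 and Prdx3 and the lowest for Sod2. It therefore enters both the ratio and the spread of these genes. For these 5 genes a ratio larger than the spread is the same event as a 7 d cocaine value outside the 3 saline values. That event, already given above, held for 25.1% of all genes below and 13.5% above. The same is so for Sod1 at 24 h, where 29.0% of all genes lay above. These counts are therefore no further result. For Prdx1 at 7 d the ratio of -0.41 stood beside a spread of 0.29. It was smaller than the spread for Gpx4 at 7 d, -0.31 beside 0.37. Against saline of 24 h and 7 d, Prdx6 at 2 h had a log2 ratio of 0.25, under the 1.2-fold limit.

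The 7 d ratios followed transcript length. Across 11039 genes with an annotated length, Spearman's rho between the length of the longest protein-coding transcript and the log2 ratio was 0.487 at 7 d, 0.157 at 2 h (11063 genes) and 0.0860 at 24 h (11139 genes). These are correlations across genes of the same libraries, which are not independent replicates, and the FPKM itself is divided by length. The trend was of the opposite sign between the 7 d and the earlier saline groups, with a rho of -0.509, and was small between cocaine at 7 d and the earlier saline groups, with a rho of -0.0637 (10798 genes).

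Of the 10 genes, 6 (Sod1, Gpx1, Gpx4, Prdx2, Prdx3 and Prdx5) belong to the shortest of 5 length classes, with transcripts of up to 1716 nt. In that class the median log2 ratio at 7 d was -0.14 and 23.2% of genes were lower by 1.2-fold. In the longest class the median was 0.09 and 0.725% were lower. With the median ratio of genes of like length subtracted, Prdx1 remained past the limit at -0.38, and Gpx4 (-0.15) and Prdx2 (-0.16) did not. Sod1, with 646 nt the shortest transcript of the set, moved to 0.23, and Sod2, with 3824 nt the longest, to 0.17. The longest Prdx1 transcript of 2294 nt is not typical of that gene, whose median is 661 nt, and with median lengths the Prdx1 value was -0.27.

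**Figure D3:**
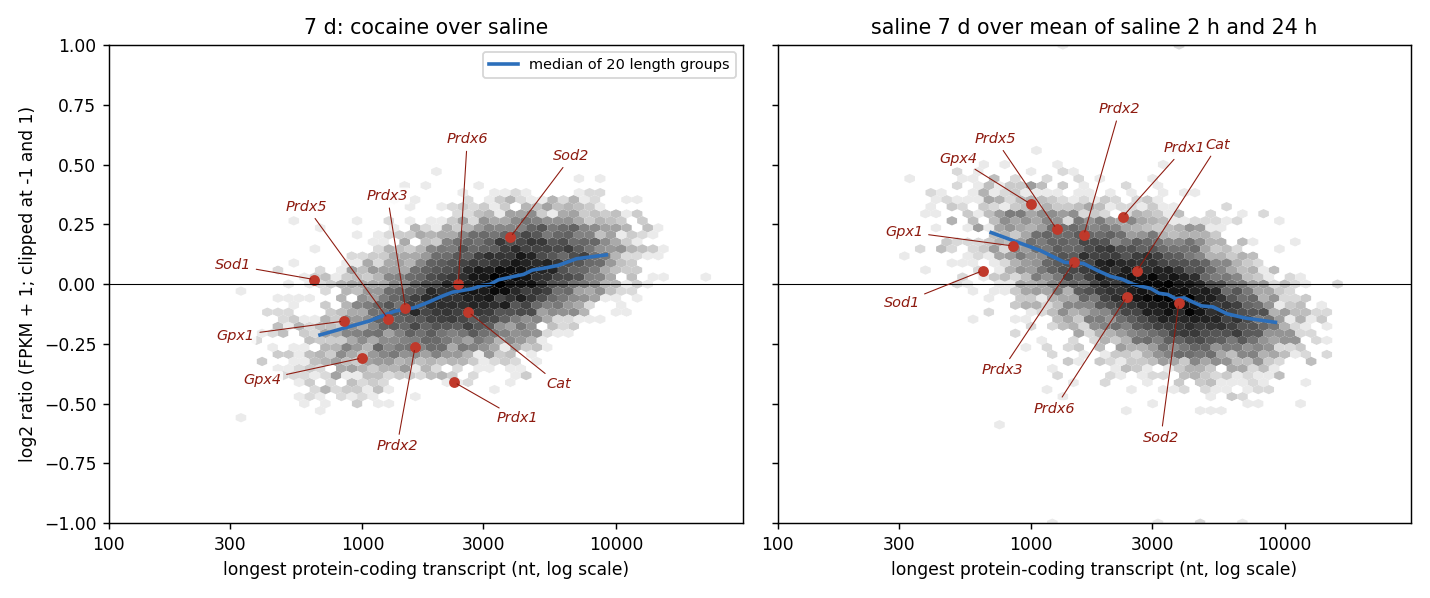
Log2 ratio against the length of the longest protein-coding transcript (log axis), with darker cells holding more genes, the blue line the median of 20 length groups and the 10 antioxidant enzymes in red. On the left, cocaine over saline at 7 d rises with length and Prdx1 lies well below the line. On the right, saline at 7 d over the mean of saline at 2 h and 24 h falls with length.

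The partners of these enzymes were followed in 8 further lists of 90 symbols, of which 84 were listed. At 2 h 8 of the 74 that passed the filter were higher and 2 lower, at 24 h 1 of 75 was higher and 1 lower, and at 7 d 1 of 73 was higher and 8 lower. The shares among all genes were 7.52% and 4.73%, 4.00% and 3.44%, and 4.87% and 9.01%. Their median log2 ratios were 0.02, -0.00 and -0.02.

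At 2 h 5 of the 8 higher genes lay in the NRF2 and metallothionein lists. Nfe2l2, which encodes NRF2, had 6.61 FPKM in saline and 8.21 FPKM in cocaine, a log2 ratio of 0.28. With it Hmox1, the inducible heme oxygenase, and Mafk, a binding partner of NRF2, made 3 of 8 genes of the NRF2 list higher, against 7.52% of all genes, at low levels of 2.52 FPKM in saline and 3.65 FPKM in cocaine for Hmox1 and of 2.14 and 3.27 FPKM for Mafk. The list's median was 0.22.

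The metal-binding and radical-scavenging Mt1 (322 FPKM in saline, 398 FPKM in cocaine) and Mt2 (169 and 205 FPKM) were higher, by 0.31 and 0.28 on the log2 scale. Mgst1, a microsomal glutathione transferase with peroxidase activity, had 10.5 and 14.2 FPKM, a log2 ratio of 0.40. Gpx8, a peroxidase of the endoplasmic reticulum, was higher by 0.27 and the mitochondrial glutaredoxin gene Glrx2 had a ratio of -0.27. The other lower gene was Gpx3, the secreted glutathione peroxidase, at -0.28, and Xdh, the xanthine dehydrogenase that can form superoxide, was higher by 0.42 at a level of 0.946 FPKM in saline and 1.60 FPKM in cocaine. At 24 h Slc7a11, the cystine importer that feeds glutathione synthesis, was the only partner named by the rule, with 7.65 FPKM in saline and 6.15 FPKM in cocaine, a log2 ratio of -0.28. The gene counted as higher at 24 h was Xdh again, at 0.29.

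At 7 d the lower partners included a thioredoxin and a further peroxiredoxin. Txn1, the cytosolic thioredoxin that reduces Prdx1 and Prdx2, had 72.8 FPKM in saline and 54.8 FPKM in cocaine, a log2 ratio of -0.40. Prdx4, the peroxiredoxin of the endoplasmic reticulum, had 18.4 and 13.3 FPKM, a log2 ratio of -0.45.

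Gsto1, a glutathione transferase of the omega class, had a ratio of -0.39, the selenoprotein gene Selk -0.33, Mgst1 -0.28 and the iron-sulfur glutaredoxin gene Glrx3 -0.27. Mt3, the brain metallothionein, went the other way, with 445 FPKM in saline and 539 FPKM in cocaine, a log2 ratio of 0.28. Gpx7, another peroxidase of the endoplasmic reticulum, and the superoxide-forming oxidase gene Nox1 were lower too, at -0.51 and -0.34, with 5.25 and 2.53 FPKM in saline. All 7 of the more abundant partners had transcripts of the shortest length class, from 538 nt for Mt3 to 1651 nt for Glrx3. In the glutathione list 2 of 15 genes were lower and in the thioredoxin list 2 of 19, against 9.01% of all genes and 23.2% of the shortest length class, with list medians of -0.00 and -0.06. None of the 6 genes that supply NADPH, the reductant behind the glutathione and thioredoxin systems, reached the limit at any time point.

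**Figure D4:**
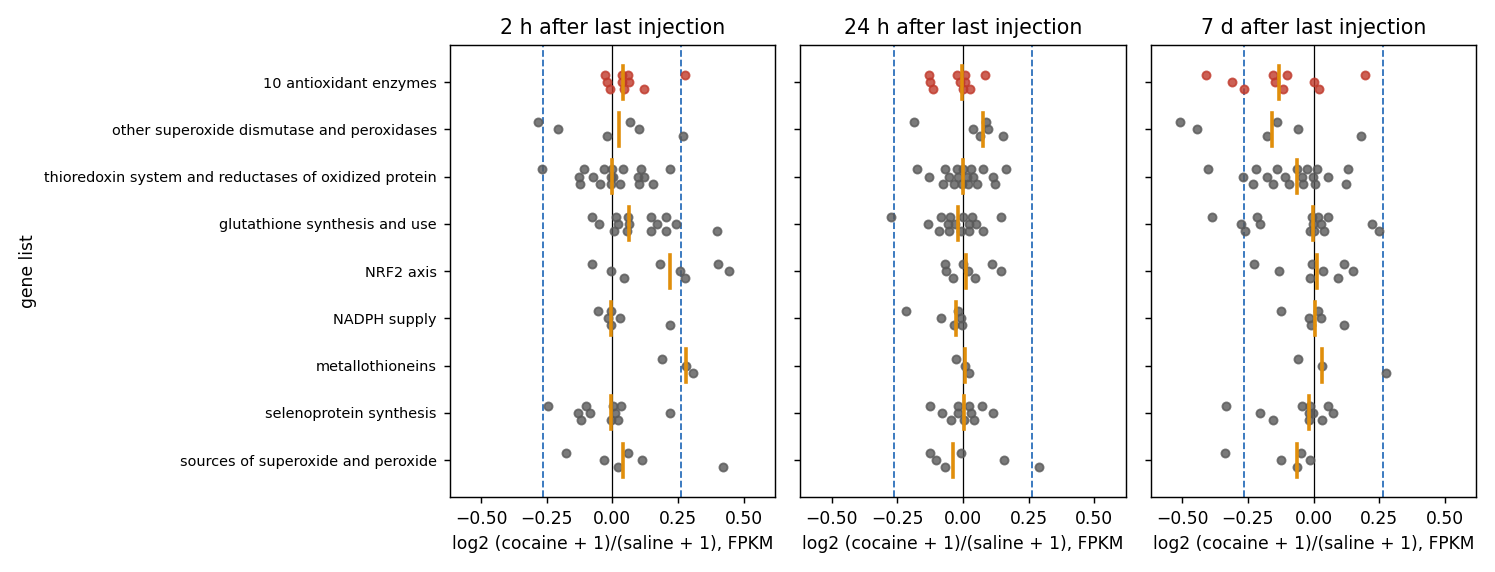
Log2 ratio of cocaine to saline for each gene of the 10 antioxidant enzymes (red) and of 8 lists of partner genes (grey) at each time point, with the median of each list in orange and 1.2-fold as dashed lines. The NRF2 list and the metallothioneins have the highest medians at 2 h, 0.22 and 0.28, and the red points lie mostly below 0 at 7 d.

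Levels of markers of other cells differed between the groups too. The 6 astrocyte markers were all above 0 at 2 h, with a median log2 ratio of 0.15 and a summed level of 554 FPKM in saline and 623 FPKM in cocaine, but none reached 1.2-fold. At 24 h all 6 were below 0 and 2 were lower by 1.2-fold, with a median of -0.18 and sums of 643 and 577 FPKM, and at 7 d all 6 were above 0 and 3 were higher by 1.2-fold, with a median of 0.21 and sums of 532 and 637 FPKM. Prdx6 had ratios of 0.27, 0.00 and 0.00 at these times, and the part of astrocytes in its 2 h value was not tested.

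Red blood cells hold much Prdx2, Cat, Sod1 and Gpx1 protein. The 5 red-cell markers that passed the filter were all higher at 2 h, with a median of 0.64 and sums of 323 FPKM in saline and 504 FPKM in cocaine, while Slc4a1 stayed between 0 and 0.133 FPKM. At the same time Gpx1, Sod1, Prdx2 and Cat had ratios of 0.12, 0.04, -0.01 and -0.02. At 7 d the red-cell sums were 452 and 529 FPKM, with 2 of the 5 markers higher. The part of blood in the values of the 10 genes was not tested.

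The other marker lists moved with some of these times. At 7 d all 5 blood vessel markers were above 0 and 2 were higher, with a median of 0.25 and sums of 73.7 FPKM in saline and 84.7 FPKM in cocaine. Of the choroid plexus markers, Ttr had 0.284 FPKM in saline and 6.54 FPKM in cocaine at 7 d, a log2 ratio of 2.56. Its log2 ratios were -0.99 at 2 h and -0.42 at 24 h. Kcnj13, the other marker of this list past the filter, had log2 ratios of 0.20, 0.05 and 0.06 at 2 h, 24 h and 7 d. Folr1, Kl and Clic6 stayed under the filter. At 24 h all 6 oligodendrocyte markers were below 0 and 1 was lower, with a median of -0.21 and sums of 803 and 669 FPKM. The microglial medians were 0.07, -0.12 and 0.01 at 2 h, 24 h and 7 d. The part of these cells in the values of the 10 genes was not tested.

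The genes whose pattern over time was nearest to the medians of the 10 genes (0.04, -0.01 and -0.13) were taken from 5981 genes with at least 10 FPKM by root mean square difference over the 3 time points. They were Sdhaf2 (0.00308), Tra2a (0.00709), Gps1 (0.00729), Ldha (0.00762) and Bet1l (0.0109). Ldha, the lactate dehydrogenase subunit, had ratios of 0.05, -0.01 and -0.14.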

How the data were processed

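RNA of 12 samples (6 groups of 2 libraries, 5 mice pooled in each) was enriched for polyadenylated RNA and sequenced without strand information. Per the submitters' processing notes the authors used CASAVA 1.8.2, Trimmomatic 0.32, TopHat2 2.0.12, Cufflinks 2.2.1 and Cuffdiff on GRCm38 (mm10), whereas the methods name cutadapt and mm9. At 7 d, the only time point checked, loci overlapped RefSeq GRCm38 for 99.8% of 11817 genes matched by symbol. The authors deposited 1 table per time point with 1 FPKM per group, pooled over libraries. The deposited log2 fold changes, test statistics, p-values and q-values hold the authors' own comparison and were not used. The depth of each library is not given by the tables.

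The log2 ratio of cocaine to saline was computed after adding 1 FPKM, for genes with a mean of at least 1 FPKM, and for names on several loci at the longest locus (Python 3.11.15, pandas 2.3.3, numpy 2.4.6, scipy 1.17.1, matplotlib 3.10.9). With 1 value per group no test was run. Steps were tested on simulated data. Transcript lengths, from a GENCODE annotation of NCBIM37 matched by symbol, covered 82.1% to 82.8% of kept genes. Named genes were the 10 enzymes; partner genes past 1.2-fold with a mean of at least 5 FPKM, at most 8 per time point; and the 5 nearest in pattern. Hmox1, Mafk, Gpx3, Gpx7, Xdh, Nox1, Junb, AV051173, Rnaseh2a, Trmt112 and Esrra were named after their values were seen. The members, lists and limits were chosen with earlier results of these data known. The alternatives were other pseudocounts, filters, folds, scalings, loci and controls, and a removed length trend.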

Additional observations from a re-analysis of the deposited data

Results flagged for a closer look

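Among the genes of the antioxidant system, Mgst1 was higher in cocaine at 2 h and lower at 7 d. Its log2 ratio was 0.40 at 2 h (10.5 FPKM in saline and 14.2 FPKM in cocaine) and -0.28 at 7 d (12.9 and 10.5 FPKM), so that the ratio at 2 h less that at 7 d was 0.68. With 1 pooled value per group this difference between time points was not tested. None of the 10 enzymes passed 1.2-fold in opposite directions at 2 time points.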

How the results depend on the processing

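No paired analysis was possible because the tables hold 1 value per group, pooled over its libraries; for the same reason leaving out each replicate and a replicate block were not run. A pseudocount of 0.1 FPKM changed no count of enzymes past 1.2-fold at a time point, in either direction. No filter on low values, a mean of at least 10 FPKM and another locus could not change these counts. Every enzyme was above 10 FPKM in all groups and had a single locus. The single higher enzyme at 2 h (Prdx6) became 0 when centred on the median of all genes, at 1.5-fold, with the length trend out by longest length (it stayed 1, at 0.27, by median length) and against saline of the other time points, a control chosen after seeing the data, as were median transcript lengths. The 3 lower enzymes at 7 d became 5 at 1.1-fold (with 1 higher), 0 at 1.5-fold, 1 with the length trend out by longest or by median length (Prdx1 at -0.38 and -0.27), 2 when centred (Prdx2 at -0.25) and 0 against saline of the other time points. The 7 d median of -0.13 was -0.017 and -0.041 with the length trend out by longest and by median length, and -0.000919 against saline of the other time points. With that control the 2 h median was -0.061, and Gpx4 at 7 d reversed from -0.31 to 0.026. Rescaling took the 7 d cocaine median over earlier saline from -0.000919 to 0.0293, and the enzymes outside the 3 saline values at 24 h from 3 above and 4 below to 0 and 5. Among all 12843 genes the counts at 24 h went from 3720 above and 2314 below to 2929 and 3025. Single-gene values moved or reversed in 25 of 300 cases, 17 of them with that control. The 300 include the fold limits, the filters and the other locus, which could not change a single-gene value. With the length trend out, 3.42% of genes were higher and 3.30% lower at 7 d, against 4.87% and 9.01%; at 1.5-fold the shares were 1.04% and 1.53%, and at 1.1-fold 17.7% and 22.8%. At 2 h and 24 h, 1.59% and 1.31% were higher and 1.003% and 0.988% lower at 1.5-fold. The depth behind each value is unknown, so the size of counting error could not be given.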
